A study of Mus musculus with 12 samples.

Results

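The 36 genes examined here act in mitosis and in the G2 phase that precedes it, and 35 of them could be read. They were listed by name, and each was taken from the probe sets (groups of array probes that report 1 transcript) to which the platform annotation gives a single gene symbol, with the brightest probe set standing for a gene. Of 34760 probe sets, 21640 carried a single symbol, for 19937 distinct genes. Ccnb1 had no such probe set and was not analysed here. Top2a had a second, dim probe set with a mean log2 value of 3.80, which passed the test in none of the comparisons.

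Expression was measured on 12 Affymetrix Mouse Gene 1.0 ST arrays, 3 for each of 4 stable derivatives of 4T1 cells, a line from a mouse mammary tumour, labelled with the genetic background BALB/cfC3H. The lines are named 4T1-control, 4T1-FL, 4T1-mutB1 and 4T1-ΔSAP, and all of them were kept in medium with 0.03% serum for 48 h before RNA was taken. Mkl1 (now Mrtfa) is a coactivator of serum response factor, and FL is read here as its full length, mutB1 as a change in the B1 region and ΔSAP as loss of the SAP domain. The sources used here do not say what the control line carries, which promoter drives the constructs or whether a line is 1 clone. Each construct is represented by 1 named line, so construct and line cannot be told apart. The p-values set a difference against the spread between triplicate cultures within lines, pooled over the 4 lines. They do not take in a spread between independent lines of 1 construct.

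Cells that divide pass from DNA synthesis through G2 into mitosis, when cyclin-dependent kinase 1 with its A and B cyclins drives the breakdown of the nuclear envelope and the building of the spindle. The anaphase-promoting complex then destroys the cyclins, the sister chromatids part and cytokinesis divides the cell. Transcripts of this machinery are low in resting cells and peak together before division, so in a mixed culture their level follows the share of cells in these phases as well as the amount per cell. On bulk arrays, fewer cells in G2 and mitosis and less RNA per cell cannot be told apart.

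Mkl1 RNA stood at 9.27 ± 0.01 (log2, SD, n = 3) in control, 12.08 ± 0.06 in FL, 11.92 ± 0.04 in ΔSAP and 11.29 ± 0.11 in mutB1. Across probe sets, arrays of a line correlated at 0.995 to 0.997 and arrays of different lines at 0.988 to 0.995. Of the 8 epithelial markers examined, Krt8 and Krt18 had means between 12.55 and 13.20 in every line. Between mutB1 and control, Krt18 changed by -0.21 (limma adjusted p = 0.00311) and Krt8 by -0.11 (adjusted p = 0.0444). Epcam, Krt7, Krt19, Cdh1, Cldn3 and Cldn4 were lower in mutB1 than in control, by changes from -1.21 (Cldn3) to -2.38 (Krt7). Krt19 stood at 6.18 in mutB1. The summed log2 level of the epithelial markers was lowest in mutB1, at 74.0 against 84.9 in control, 85.9 in FL and 90.7 in ΔSAP. That of 8 fibroblast markers was highest in mutB1, at 61.1 against 53.7 to 55.2, mainly through Pdgfrb and Fbln1. Of the 8 fibroblast markers, 5 or 6 lay above the lowest array median in each line, from Lum at 3.52 or less to Pdgfra at 9.38 to 10.87. Summed levels were 39.6 to 41.4 over 7 leukocyte markers and 35.44 to 35.96 over 6 endothelial markers, of which 2 and 1 lay above that median in each line. The defining leukocyte marker Ptprc and endothelial marker Kdr were at most 4.70 and 4.51, while Cd68 stood at 8.53 to 9.58 and Eng at 11.32 to 11.82. S100a8 reached 7.59 in mutB1 and was at most 6.13 in the other lines. The mutB1 line thus differs from the others in these markers as well, and their part in the results on mitotic genes was not tested.

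Genes of this kind are known for promoters that hold CCAAT boxes, bound by the factor NF-Y, and a downstream cell cycle homology region (CHR), read by the DREAM and MuvB complexes that silence the genes in resting cells and activate them before mitosis. The windows of the 3 member genes that differed most over the 4 lines, among those with a CHR form that could be printed, are shown because most members share this layout. Each runs from 250 bases before to 50 bases after the gene start in RefSeq (GRCm38.p6), and capitals mark TTTGAA, a CHR form, and CCAAT or its reverse complement. The windows lie at chr2:172370521-172370820 (Aurka), chr7:135716330-135716629 (Mki67) and chr3:27153829-27154128 (Ect2), all on the minus strand.
Aurka: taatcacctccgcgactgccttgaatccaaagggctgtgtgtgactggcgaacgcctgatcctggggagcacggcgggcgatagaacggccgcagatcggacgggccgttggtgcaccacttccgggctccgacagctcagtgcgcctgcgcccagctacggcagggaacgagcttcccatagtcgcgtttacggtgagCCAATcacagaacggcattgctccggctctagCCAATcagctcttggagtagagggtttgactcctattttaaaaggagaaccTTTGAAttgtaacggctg
Mki67: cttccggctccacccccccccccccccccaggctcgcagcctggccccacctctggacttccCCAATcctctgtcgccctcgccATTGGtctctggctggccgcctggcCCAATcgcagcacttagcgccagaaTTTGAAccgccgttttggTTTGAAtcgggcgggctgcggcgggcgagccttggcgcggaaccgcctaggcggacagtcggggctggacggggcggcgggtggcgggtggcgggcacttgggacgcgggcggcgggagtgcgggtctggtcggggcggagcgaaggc
Ect2: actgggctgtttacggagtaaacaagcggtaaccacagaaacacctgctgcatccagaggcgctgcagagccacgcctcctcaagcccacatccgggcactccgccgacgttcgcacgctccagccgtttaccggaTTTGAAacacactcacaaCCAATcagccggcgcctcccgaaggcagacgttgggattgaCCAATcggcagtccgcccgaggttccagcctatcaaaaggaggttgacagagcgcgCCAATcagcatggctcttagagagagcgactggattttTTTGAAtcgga

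In Aurka the CCAAT boxes start at positions -51 and -19 and the CHR form at position 32, counted from the gene start at 0. In Mki67 the CHR forms start at -116 and -98, and in Ect2 at -114 and 39. Windows of 28 of the 35 members were in the RefSeq table. Searched on both strands, TTTGAA was in 22 of these 28 members (78.6%), against 17.9% of all 32851 windows, TTCGAA in 3 (10.7% against 1.56%) and CCAAT in 21 (75.0% against 37.4%). A CHR form and a CCAAT box occurred together in 20 members (71.4%), against 7.52% of all windows. A CHR form lay within 100 bases before the start or in the 50 bases after it in 22 of 28 members, against 8.59% of all windows. None of the marked motifs overlapped in the windows printed. Birc5, Cenpe, Mad2l1, Nuf2 and Nusap1 held neither CHR form in this window. These matches are descriptions of the letters and were not tested as binding sites.

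**Figure D1:**
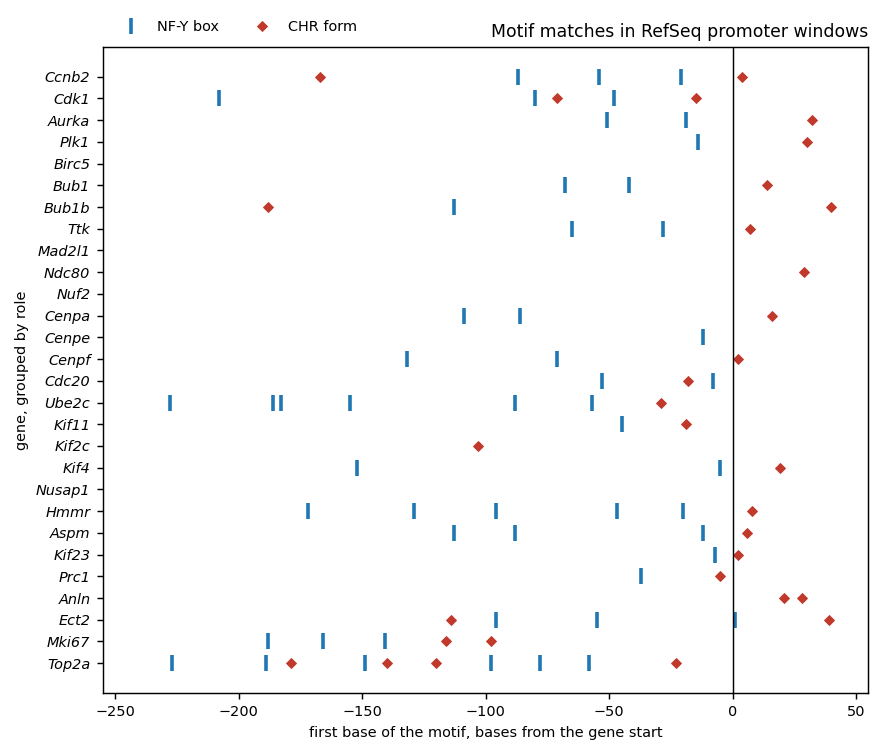
Positions of CHR forms (red diamonds) and NF-Y boxes (blue bars) in the promoter windows of 28 member genes, as the first base of each match in bases from the RefSeq gene start at 0. The windows hold 300 bases. In 22 of the 28 genes a CHR form lies within 100 bases before the start or after it.

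The members were among the brighter probe sets of the array. All arrays come from cells in low serum, so an effect of serum was not tested. Their mean log2 values ran from 8.31 (Cdc25c) to 12.16 (Anln), with a median of 11.00, and 27 of 35 were at 10 or above. The dimmest lay above 66.9% of all probe sets. The highest value on any array was 13.88. Values of different genes are not per length, so this order is of signal and not of RNA amount.

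Differences between lines were small, and many of the calls below were lost when an array was left out or the processing was changed. The largest change of any member in any of the 6 comparisons between lines was 0.57 on the log2 scale, a 1.48-fold difference (Aurka between mutB1 and ΔSAP), while the median SD of a member within a line was 0.03. No member met the study's filters of a 2-fold change, an adjusted p of at most 0.01 and a mean of at least 4 in any comparison, which 3.47% of all probe sets did in at least 1. Calls below therefore use limma's adjusted p of at most 0.01 over all probe sets, with no minimum fold. By limma's F test over the 4 lines, 28 of 35 members differed (27.7% of all probe sets did). The members are bright and bright probe sets pass more often, so 27.7% is not a matched background. A share among bright genes was not computed for this test. The exceptions were Incenp, Cenpa, Cenpe, Cdc20, Ube2c, Kif11 and Kif23.

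The mutB1 line had the highest mean for 28 of the 35 members, ΔSAP for 4 (Ndc80, Cenpe, Cdc20 and Anln), FL for 3 (Ccna2, Incenp and Birc5) and control for 0. Control was lowest for 14 members, FL for 12, ΔSAP for 6 and mutB1 for 3 (Birc5, Cenpe and Cdc20). These ranks include Incenp, Cenpe, Cdc20, Ube2c and Kif23, which passed in none of the 6 comparisons. How often each line ranked highest or lowest over all probe sets was not computed. The median log2 value over the members was 11.07, 11.08 and 11.07 in the mutB1 arrays, 11.01, 11.02 and 11.01 in ΔSAP, 11.00, 10.94 and 11.00 in control and 10.95, 10.88 and 10.92 in FL. The mutB1 arrays lay above all others and did not overlap any other line, and FL overlapped control. Taken gene by gene as the difference from the control mean, the median member stood at 0.05, 0.03 and 0.11 on the FL arrays, 0.01, 0.07 and 0.04 on ΔSAP and 0.17, 0.20 and 0.18 on mutB1. The median level and the median difference thus place FL on opposite sides of control.

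**Figure D2:**
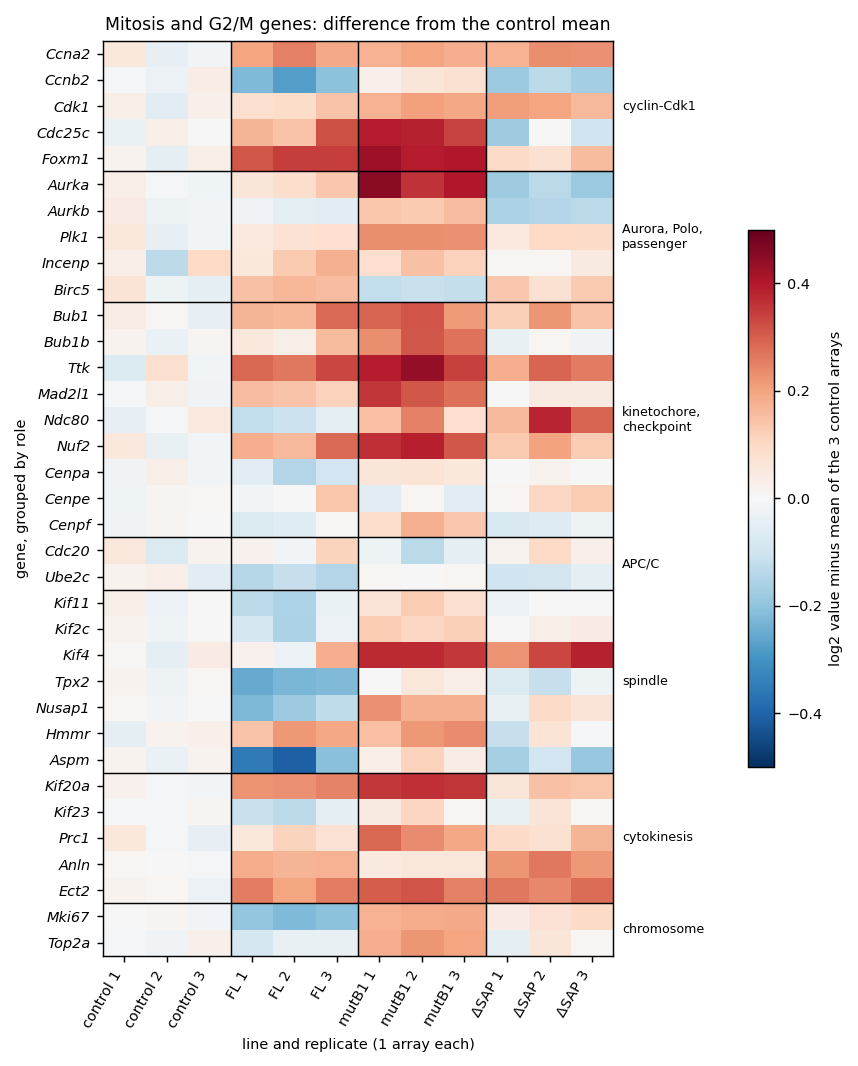
Log2 value of 35 member genes (rows, grouped by role) on each of 12 arrays (columns), minus the mean of the 3 control arrays of that gene. Red is above control and blue below. The mutB1 columns are red in most rows, while the FL columns are red for genes such as Foxm1, Ttk and Ect2 and blue for Mki67, Tpx2, Aspm and Ccnb2.

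The comparison of FL with mutB1, named in the study's design, asks what depends on the B1 region. Mkl1 RNA also differed, at 12.08 in FL and 11.29 in mutB1, so its level and the B1 change cannot be told apart here. Of the 35 members, 16 were lower (9.0% of all probe sets were) 1 was higher (8.82%) and 18 did not pass. The median change was -0.16, against 0.00 over all probe sets. Because the members are bright and bright probe sets pass more often, the share among the 8690 named genes with a mean of at least 8, a cutoff picked with the values known, is given too: 23.5% lower and 21.2% higher. The count of lower members fell to 10 without FL replicate 1, 9 without FL replicate 2, 9 without mutB1 replicate 2, 10 without mutB1 replicate 3 and 7 when only the 6 arrays of both lines were fitted, and 6 of the 16 calls (Ccnb2, Aurka, Tpx2, Nusap1, Aspm and Mki67) held under every alternative run.

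Among the markers of chromosomes, both members were lower in FL than in mutB1. Mki67 encodes Ki-67, which coats mitotic chromosomes and is the standard stain for cycling cells. Its log2 values were 11.75, 11.76 and 11.73 in control, 11.56, 11.53 and 11.54 in FL, 11.79, 11.82 and 11.84 in ΔSAP and 11.92, 11.94 and 11.94 in mutB1. The lines did not overlap, with FL lowest and mutB1 highest. The change of Mki67 between FL and mutB1 was -0.39 ± 0.03 (SE, limma adjusted p = 6.14e-06), the largest difference of a member in this comparison, which is a fold of 1.31. Top2a, the topoisomerase that untangles sister chromatids, was lower by a change of -0.25 ± 0.04 (adjusted p = 0.000483).

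Of 7 motors and microtubule factors, 6 were lower in FL than in mutB1 and Hmmr, a spindle-binding receptor, changed by -0.02. Nusap1, which bundles spindle microtubules around chromosomes, read 10.81, 10.79 and 10.81 in control, 10.58, 10.62 and 10.68 in FL, 10.77, 10.90 and 10.87 in ΔSAP and 11.03, 10.98 and 10.98 in mutB1. All FL arrays lay below every other array and all mutB1 arrays above, with a change between them of -0.37 ± 0.04 (limma adjusted p = 0.000105). Tpx2, the factor that brings Aurora A to the spindle, read 11.13, 11.09 and 11.12 in control, 10.86, 10.88 and 10.89 in FL, 11.04, 11.00 and 11.08 in ΔSAP and 11.11, 11.17 and 11.14 in mutB1. Here FL was low and mutB1 overlapped control. The change of Tpx2 against mutB1 was -0.26 ± 0.04 (adjusted p = 0.000277). Aspm, a spindle pole protein needed for brain size, was lower by -0.38 ± 0.05, the plus-end motor Kif4 by -0.31 ± 0.06, the microtubule depolymerase Kif2c by -0.21 ± 0.04 and Kif11, the motor that pushes the poles apart, by -0.20 ± 0.04.

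Of 5 kinase and chromosomal passenger genes, 3 were lower in FL than in mutB1 (Aurka, Aurkb and Plk1), 1 was higher (Birc5) and Incenp did not pass. Aurka encodes Aurora A, which matures the spindle poles. It read 10.77, 10.72 and 10.71 in control, 10.79, 10.82 and 10.87 in FL, 10.56, 10.60 and 10.55 in ΔSAP and 11.19, 11.10 and 11.13 in mutB1. The mutB1 arrays were highest, ΔSAP lowest, and control and FL lay between them without overlap. Between FL and mutB1, Aurka changed by -0.31 ± 0.04 (limma adjusted p = 0.000154). Aurkb, the catalytic subunit of the chromosomal passenger complex, read 12.21, 12.14 and 12.15 in control, 12.15, 12.12 and 12.11 in FL, 12.01, 12.02 and 12.03 in ΔSAP and 12.31, 12.30 and 12.32 in mutB1, and FL overlapped control only. Its change against mutB1 was -0.18 ± 0.03 (adjusted p = 0.00182), and that of Plk1, the Polo-like kinase of mitotic entry, -0.16 ± 0.04 (adjusted p = 0.00561).

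Birc5 (survivin), the passenger subunit also known as an inhibitor of apoptosis, was the member higher in FL. It was chosen for its full values after they were seen, at 9.76, 9.66 and 9.64 in control, 9.83, 9.85 and 9.84 in FL, 9.82, 9.76 and 9.82 in ΔSAP and 9.56, 9.58 and 9.57 in mutB1. The mutB1 arrays were the lowest, below every other array. The change between FL and mutB1 was 0.27 ± 0.04 (limma adjusted p = 0.000348), and ΔSAP exceeded mutB1 by 0.23 ± 0.04 (adjusted p = 0.00125). Incenp, the scaffold of the same complex, passed in none of the comparisons, with changes between -0.09 and 0.12.

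Of 9 kinetochore and checkpoint genes, 4 were lower in FL than in mutB1 and 0 higher. These were the checkpoint genes Bub1b (-0.19 ± 0.04) and Mad2l1 (-0.18 ± 0.03), the centromeric histone Cenpa (-0.16 ± 0.03) and the kinetochore protein Cenpf (-0.18 ± 0.04). Mad2l1 encodes the protein that keeps Cdc20 inactive until chromosomes are attached. It read 11.57, 11.61 and 11.57 in control, 11.74, 11.73 and 11.70 in FL, 11.59, 11.63 and 11.63 in ΔSAP and 11.94, 11.89 and 11.86 in mutB1. FL lay between mutB1 and the other lines, and only ΔSAP and control overlapped. Ttk (-0.10 ± 0.05), Nuf2 (-0.15 ± 0.05), Bub1 (-0.07 ± 0.05), Ndc80 (-0.26 ± 0.06, adjusted p = 0.0114) and Cenpe (0.07 ± 0.05) did not pass.

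Of the 5 genes of the cyclin-Cdk1 engine, 1 was lower in FL than in mutB1. Ccnb2, cyclin B2, read 12.022, 11.999 and 12.067 in control, 11.81, 11.75 and 11.82 in FL, 11.84, 11.89 and 11.86 in ΔSAP and 12.06, 12.09 and 12.11 in mutB1. FL was lowest, ΔSAP was just above it, and control overlapped mutB1. The change of Ccnb2 was -0.29 ± 0.04 (limma adjusted p = 0.000169). Cdk1 (-0.09 ± 0.04), its activating phosphatase Cdc25c (-0.16 ± 0.06), cyclin A2 (Ccna2, 0.03 ± 0.04) and the transcription factor Foxm1 (-0.07 ± 0.04) did not pass. Nor did 2 genes that work with the anaphase-promoting complex, its activator Cdc20 (0.11 ± 0.05) and the enzyme Ube2c (-0.14 ± 0.03). The 5 cytokinesis genes did not pass either, with changes from -0.16 (Prc1) to 0.12 (Anln).

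**Figure D3:**
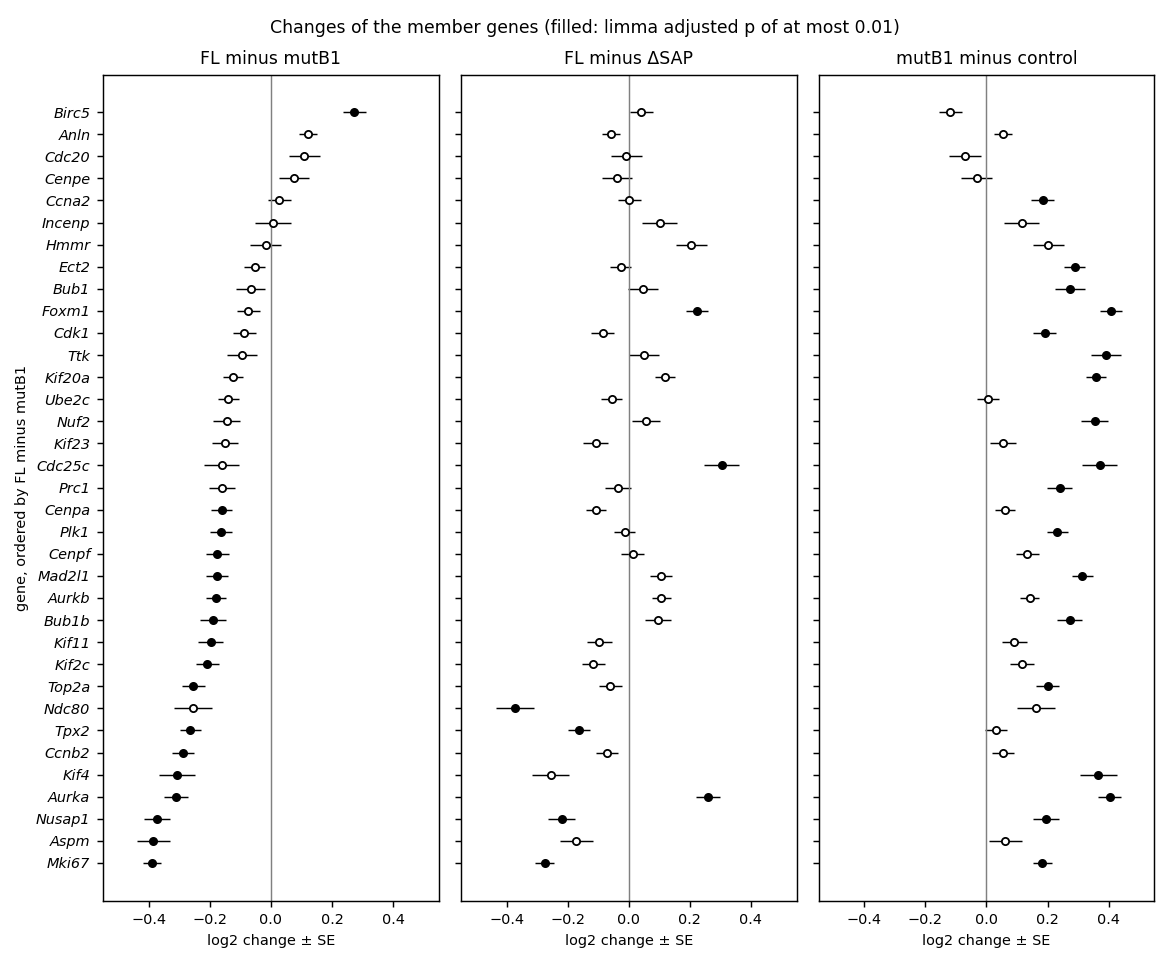
Log2 change with its standard error (x axis) of 35 member genes (rows, ordered by FL minus mutB1) in 3 comparisons. Filled points have a limma adjusted p of at most 0.01. The left panel holds 16 filled points below 0 and 1 above, the middle panel 4 below and 3 above, and the right panel 18 above and 0 below.

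The comparison of FL with ΔSAP, the other one named in the design, asks what depends on the SAP domain. Here Mkl1 RNA was at 12.08 in FL and 11.92 in ΔSAP, and the part of its level was not tested. The members did not move in 1 direction: 3 were higher in FL (5.73% of all probe sets were), 4 were lower (5.7%) and 28 did not pass. Among named genes with a mean of at least 8, 16.0% were higher and 15.4% lower, against 8.57% and 11.4% of the members. The median change was -0.03, against 0.03 over all probe sets. After median centring of the arrays the counts were 0 higher and 2 lower, and with the replicate block, 3 and 2. The count of lower members was 1 without FL replicate 1 and 2 without FL replicate 2, ΔSAP replicate 2 or ΔSAP replicate 3.

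The members higher in FL than in ΔSAP were Cdc25c (0.30 ± 0.06, limma adjusted p = 0.00393), Aurka (0.26 ± 0.04, adjusted p = 0.0009) and Foxm1 (0.22 ± 0.04, adjusted p = 0.00179), and after median centring their adjusted p were 0.0286, 0.0118 and 0.0299. Foxm1, the forkhead factor that activates G2/M genes, read 10.66, 10.59 and 10.67 in control, 10.95, 10.98 and 10.98 in FL, 10.73, 10.71 and 10.80 in ΔSAP and 11.06, 11.03 and 11.04 in mutB1. Control was lowest, ΔSAP a little above it, and FL and mutB1 were high, with no overlap between lines. Cdc25c, given in full after its values were seen, read 8.16, 8.22 and 8.19 in control, 8.36, 8.33 and 8.51 in FL, 8.01, 8.19 and 8.09 in ΔSAP and 8.58, 8.57 and 8.53 in mutB1. FL and mutB1 lay above the other lines, which overlapped.

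The members lower in FL than in ΔSAP were Ndc80 (-0.37 ± 0.06, limma adjusted p = 0.00193), Mki67 (-0.28 ± 0.03, adjusted p = 0.000151), Nusap1 (-0.22 ± 0.04, adjusted p = 0.00528) and Tpx2 (-0.16 ± 0.04, adjusted p = 0.00902). Of the 7 calls in this comparison, that of Mki67 was kept under every alternative run. Ndc80, the outer kinetochore protein that grips microtubules, was also set out in full after its values were seen: 8.89, 8.92 and 8.98 in control, 8.81, 8.82 and 8.88 in FL, 9.10, 9.31 and 9.22 in ΔSAP and 9.08, 9.19 and 9.02 in mutB1. ΔSAP and mutB1 were high and overlapped. Cdk1 (-0.09 ± 0.04), Ccna2 (0.00 ± 0.04), Plk1 (-0.01 ± 0.04), Ccnb2 (-0.07 ± 0.04) and Top2a (-0.06 ± 0.04) did not pass, which does not show that they were equal.

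Against control, the 3 construct lines shared the control arrays, so their values stand side by side and are not independent. In mutB1, 18 members were higher than in control (5.83% of all probe sets were) and 0 were lower (6.89%), with a median change of 0.18 against 0.00 over all probe sets. Of the named genes with a mean of at least 8, 15.72% were higher and 18.03% lower. The calls covered 4 of 5 cyclin-Cdk1 genes, 2 of 5 kinase and passenger genes and 5 of 9 kinetochore genes. Of the 2 genes that work with the anaphase-promoting complex, 0 were called. The rest were 2 of 7 spindle genes, 3 of 5 cytokinesis genes and 2 of 2 chromosome genes. Birc5 (-0.12 ± 0.04) did not pass. The largest were Foxm1 (0.41 ± 0.04), Aurka (0.40 ± 0.04), Ttk (0.39 ± 0.05), Cdc25c (0.37 ± 0.06), Kif4 (0.37 ± 0.06) and Kif20a (0.36 ± 0.03). With only the 6 arrays of both lines fitted, 10 members were higher, and 10 of the 18 calls held under every alternative run.

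In FL, 8 members were higher than in control (9.61% of all probe sets were) and 4 lower (10.4%), with a median of 0.07 against -0.01. Of named genes with a mean of at least 8, 23.2% were higher and 27.7% lower. After median centring the counts were 2 higher, Foxm1 and Ect2, and 5 lower, and with only the arrays of the pair 4 and 3. The higher members were Foxm1 (0.33 ± 0.04), Ttk (0.29 ± 0.05), Ect2 (0.24 ± 0.03), Kif20a (0.23 ± 0.03), Ccna2 (0.21 ± 0.04), Bub1 (0.21 ± 0.05), Nuf2 (0.21 ± 0.05) and Anln (0.18 ± 0.03). The lower members were Aspm (-0.32 ± 0.05), Ccnb2 (-0.23 ± 0.04), Tpx2 (-0.23 ± 0.04) and Mki67 (-0.21 ± 0.03). The calls of Foxm1, Ect2, Ccnb2, Tpx2 and Mki67 held under every alternative run. By role, 3 of 5 cytokinesis genes, 3 of 9 kinetochore genes and 2 of 5 cyclin-Cdk1 genes were higher in FL than in control. Lower were 2 of 7 spindle genes, 1 of 5 cyclin-Cdk1 genes and 1 of 2 chromosome genes. No kinase or passenger gene, and no gene that works with the anaphase-promoting complex, was called. The share of spindle genes lower, 28.6%, was near the 27.7% of named genes with a mean of at least 8.

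In ΔSAP, 7 members were higher than in control (6.96% of all probe sets were) and 3 lower (7.83%), with a median of 0.04 against -0.03. Of named genes with a mean of at least 8, 16.7% were higher and 20.7% lower. The higher members were Kif4 (0.31 ± 0.06), Ndc80 (0.28 ± 0.06), Ect2 (0.26 ± 0.03), Ttk (0.24 ± 0.05), Anln (0.23 ± 0.03), Ccna2 (0.21 ± 0.04) and Cdk1 (0.19 ± 0.04), and the lower ones Aurka (-0.17 ± 0.04), Ccnb2 (-0.16 ± 0.04) and Aurkb (-0.15 ± 0.03). The count of higher members was 4, 3 and 4 without control replicates 1, 2 and 3, 2 without ΔSAP replicate 2 and 3 without ΔSAP replicate 3. The calls of the lower members were at the threshold, and 1 was left without FL replicate 2 and 0 without any other array. After median centring 2 were higher and 0 lower, and of the 10 calls that of Ect2 alone held under every alternative run.

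Ccna2, Ttk and Ect2 were higher than control in all 3 construct lines, and the calls of Ect2 held under all 19 alternatives. Those of Ccna2 ended in 2 (FL), 9 (mutB1) and 6 (ΔSAP) of them, and those of Ttk in 1, 0 and 6. Ect2 is the exchange factor that activates RhoA at the cleavage furrow. It read 11.22, 11.21 and 11.17 in control, 11.46, 11.40 and 11.46 in FL, 11.47, 11.44 and 11.48 in ΔSAP and 11.50, 11.51 and 11.45 in mutB1. The construct lines overlapped each other and all lay above control. Ttk, the Mps1 kinase of the spindle checkpoint, read 8.59, 8.74 and 8.64 in control, 8.94, 8.92 and 8.99 in FL, 8.84, 8.95 and 8.92 in ΔSAP and 9.05, 9.09 and 8.997 in mutB1. Control was again the lowest, with no overlap.

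Cdk1, the master kinase, read 11.86, 11.77 and 11.86 in control, 11.91, 11.92 and 11.97 in FL, 12.04, 12.03 and 11.99 in ΔSAP and 12.004, 12.03 and 12.02 in mutB1. It was higher than control in mutB1 (0.19 ± 0.04, limma adjusted p = 0.00415) and in ΔSAP (0.19 ± 0.04, adjusted p = 0.00388), calls that ended in 8 and 6 of 19 alternatives (adjusted p up to 0.0332 and 0.0359). It did not pass in FL (0.10 ± 0.04, adjusted p = 0.0645). Kif20a, a motor of the central spindle, read 11.15, 11.12 and 11.11 in control, 11.35, 11.36 and 11.37 in FL, 11.19, 11.27 and 11.26 in ΔSAP and 11.48, 11.49 and 11.48 in mutB1. The 4 lines did not overlap, in the order control, ΔSAP, FL and mutB1. Anln, the cleavage furrow scaffold anillin, was higher in FL and ΔSAP but in mutB1 differed from control by 0.05 ± 0.03. Ube2c, the ubiquitin-conjugating enzyme that works with the anaphase-promoting complex, read 11.13, 11.14 and 11.06 in control, 10.97, 11.00 and 10.96 in FL, 11.01, 11.02 and 11.06 in ΔSAP and 11.12, 11.11 and 11.12 in mutB1. FL was lowest, and no pair of lines passed.

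**Figure D4:**
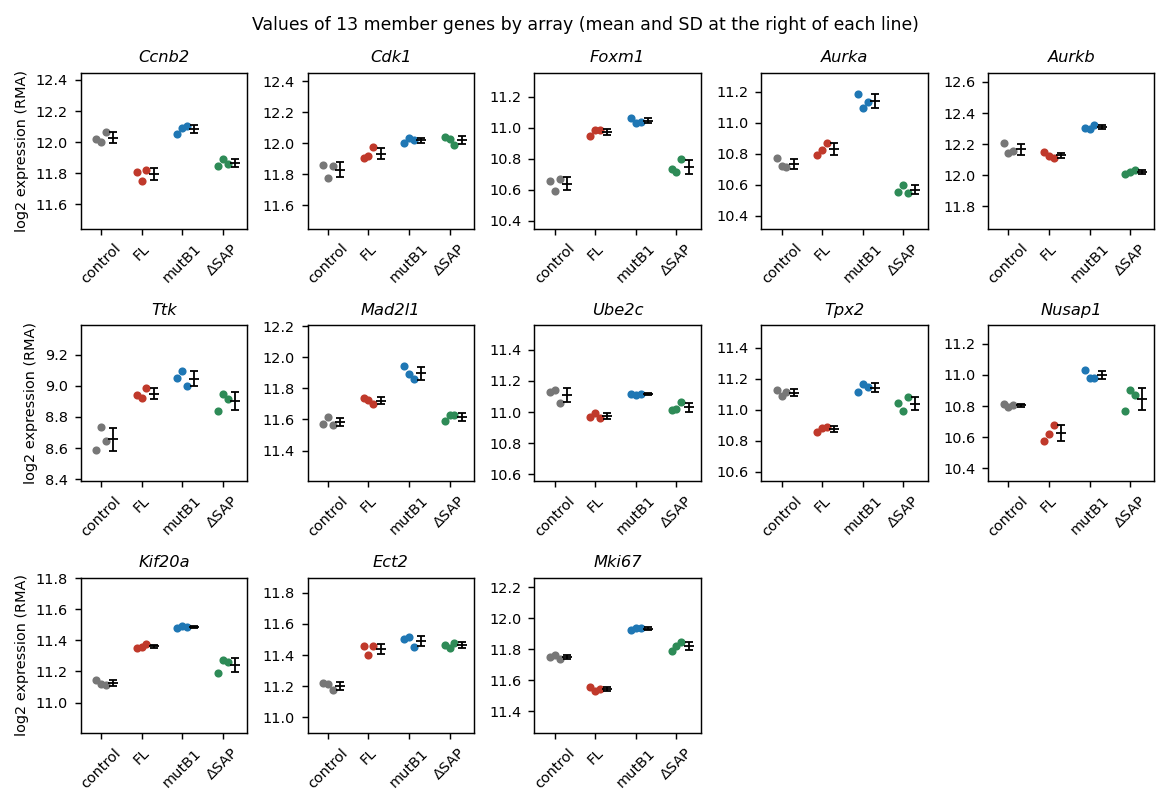
Log2 expression (y axis, 1.0 unit high in every panel) of 13 member genes on each array, by line, with the mean and SD of 3 arrays in black. The mutB1 arrays are highest for Aurka, Aurkb, Foxm1, Mad2l1, Nusap1, Kif20a and Mki67, and FL arrays lowest for Mki67, Nusap1, Tpx2, Ccnb2 and Ube2c.

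ΔSAP against mutB1 tests whether the lines with an altered construct differ. In ΔSAP, 12 members were lower (8.0% of all probe sets were) and 2 were higher, Birc5 and Anln (7.07%), with a median of -0.11 against -0.03. Of named genes with a mean of at least 8, 20.7% were lower and 16.8% higher. The largest were Aurka (-0.57 ± 0.04, limma adjusted p = 2.38e-06), Cdc25c (-0.47 ± 0.06), Foxm1 (-0.30 ± 0.04), Aurkb (-0.29 ± 0.03), Bub1b (-0.29 ± 0.04) and Mad2l1 (-0.28 ± 0.03), and these 6 calls held under every alternative run. This comparison shares its mutB1 arrays with that of FL and mutB1. With only the arrays of the pair, 6 were lower, and after median centring, 7.

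Other genes of the pathway were taken from 3 lists. Of 55 further G2/M genes measured, 34 (61.8%) were higher in mutB1 than in control and 1 (1.82%) lower. The counts were 15 (27.3%) and 4 (7.27%) in FL, and 18 (32.7%) and 3 (5.5%) in ΔSAP. All probe sets gave 5.83% and 6.89% in mutB1, 9.61% and 10.4% in FL, and 6.96% and 7.83% in ΔSAP. Named genes with a mean of at least 8 gave 15.72% and 18.03%, 23.2% and 27.7%, and 16.7% and 20.7%, in that order. The count of 34 was 21 with only the arrays of the pair, and that of 15 was 9 after median centring. The count of 18 was 11 without control replicate 3 and 10 without ΔSAP replicate 2 or 3. Between FL and mutB1, 20 (36.4%) were lower and 0 higher, with a median of -0.14. All probe sets gave 9.0% and 8.82%, and named genes with a mean of at least 8 gave 23.5% and 21.2%. Between FL and ΔSAP, 5 (9.09%) were lower and 5 (9.09%) higher. All probe sets gave 5.7% and 5.73%, and those named genes 15.4% and 16.0%. The count of 20 was 11 and 10 without FL replicates 1 and 2, 12, 13 and 13 without mutB1 replicates 1, 2 and 3, and 8 with only the arrays of the pair. The 5 higher became 1 or 2 without any FL or ΔSAP array and 1 after median centring. Spc25, a partner of Ndc80 and Nuf2 in the kinetochore, changed by -0.85 between FL and mutB1. The cytokinesis gene Cep55, the centromere gene Cenph, the condensin Smc4 and the checkpoint remodeller Trip13 were higher than control in every construct line, by 0.30 to 0.66, whereas the spindle gene Psrc1 was lower in all of them (-0.72 in FL, -0.48 in mutB1 and -0.94 in ΔSAP).

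DNA replication and E2F target genes act a phase earlier. Of 43 measured, 37 (86.0%) were higher in mutB1 than in control, 27 (62.8%) in FL and 27 (62.8%) in ΔSAP. Over all probe sets these shares were 5.83%, 9.61% and 6.96%. Among named genes with a mean of at least 8 they were 15.7%, 23.2% and 16.7%. Medians were 0.32, 0.23 and 0.22. Lower were 0, 1 and 0, against 6.89%, 10.4% and 7.83% of all probe sets. After median centring 31, 19 and 16 were higher, and with only the arrays of the pair 11 were higher in ΔSAP. Between FL and mutB1, 12 (27.9%) were lower and 2 (4.65%) higher. All probe sets gave 9.0% and 8.82%, and named genes with a mean of at least 8 gave 23.5% and 21.2%. Between FL and ΔSAP, 1 (2.33%) was lower and 3 (6.98%) higher. All probe sets gave 5.7% and 5.73%, and those named genes 15.4% and 16.0%. Cyclin E1 (Ccne1) exceeded control by 0.98 in mutB1, 0.51 in FL and 0.47 in ΔSAP. The replicative helicase gene Mcm2 (0.42 and 0.35) and the replication gene Mcm10 (0.75 and 0.65) were higher in mutB1 and FL. Neither passed in ΔSAP. The licensing genes Orc1 and Cdc6 and the thymidylate synthase Tyms were higher in every construct line.

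Of 33 measured regulators, Cdk inhibitors and entry brakes, 11 (33.3%) were higher and 6 (18.2%) lower in FL than in control. The counts were 11 (33.3%) and 2 (6.06%) in mutB1, and 9 (27.3%) and 3 (9.09%) in ΔSAP. All probe sets gave 9.61% and 10.4% in FL, 5.83% and 6.89% in mutB1, and 6.96% and 7.83% in ΔSAP. Named genes with a mean of at least 8 gave 23.2% and 27.7%, 15.72% and 18.03%, and 16.7% and 20.7%, in that order. Rb1, which restrains E2F, was lower in FL (-0.95), mutB1 (-0.26) and ΔSAP (-0.52), and its relative Rbl2 in FL (-0.67) and ΔSAP (-0.25). The Cdk4 and Cdk6 inhibitor Cdkn2c was lower in FL than in mutB1 (-0.61) and ΔSAP (-0.56). Lin54, the MuvB subunit that reads the CHR, was higher than control in every construct line (0.61, 0.51 and 0.49 in FL, mutB1 and ΔSAP), as was Ccnd3. The G1 cyclin Ccnd2 was the only gene of the 3 lists with a 2-fold difference from control, by 3.33 in FL and 1.72 in ΔSAP.

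**Figure D5:**
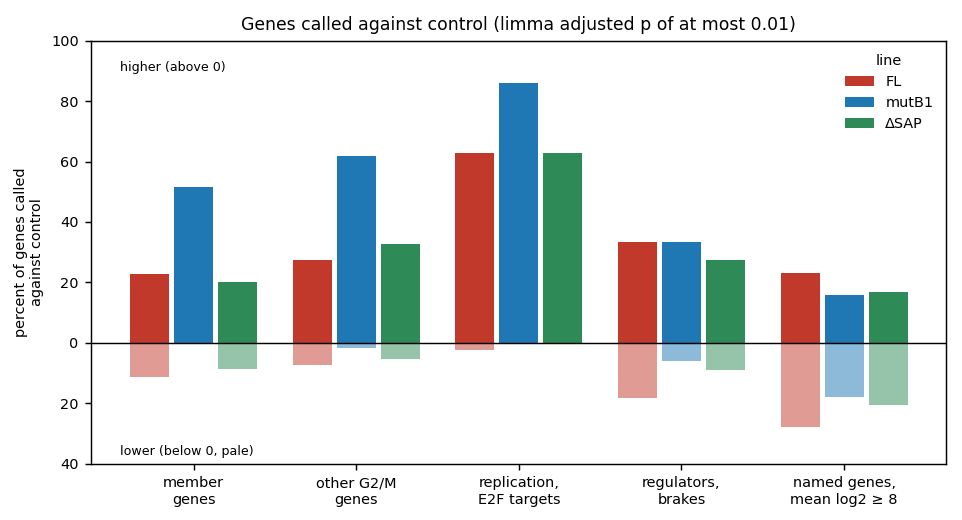
Percent of genes called higher (bars above 0) or lower (pale bars below 0) than control at a limma adjusted p of at most 0.01, in FL, mutB1 and ΔSAP, for 35 member genes, 55 other G2/M genes, 43 replication and E2F genes, 33 regulators and 8690 named genes with a mean log2 of at least 8. The members reach 51.4% higher in mutB1, and the replication genes 86.0%, against 15.7% of the named genes.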

How the data were processed

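The table holds 1 log2 value per probe set and array as deposited. Per the labels and the series design text, the authors computed these log2 values by RMA, which subtracts background, equalizes the arrays' quantiles and summarizes probes, using affy from Bioconductor 2.4, with R 2.10.0 per the submitters' processing notes. No source used here states the probe set definition or genome build, and RMA values carry no detection call. Gene symbols come from the platform annotation of the probe sets. Companion lists were matched after symbols were updated through Entrez identifiers with RefSeq GRCm38.p6, which held 21553 of the 21640 single-symbol probe sets. Array medians lay between 6.35 and 6.45, and with 3 arrays per line their number limits the precision.

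All 12 arrays were fitted with the 4 line means in limma 3.58.1 (lmFit and eBayes, R 4.3.3), as the design text names, across all 34760 probe sets with Benjamini-Hochberg adjustment, and the fit was tested on simulated data. Changes are log2 differences, the line named first less the other. Members, lists and tests were chosen with earlier results of these data known. Values by array are given for the members with the smallest F test p, 2 in each role group and 1 in groups of 2, and for Mki67, Foxm1 and Cdk1. From each companion list the 6 genes with the smallest F test p are named. Alternatives were a mean of at least 6, median centring, a further quantile normalization, eBayes with trend and robust, a fit of 1 pair of lines, a replicate block, the mean of a gene's probe sets, and leaving out each array.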

Additional observations from a re-analysis of the deposited data

Results flagged for a closer look

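Mki67 and Aurka were called against control in opposite directions in different construct lines. Mki67 was lower than control in FL (-0.21 ± 0.03, SE) and higher in mutB1 (0.18 ± 0.03), and the difference between FL and mutB1 was itself tested (-0.39, limma adjusted p = 6.14e-06). Over all alternatives its adjusted p against control was at most 0.00842 in FL and 0.0208 in mutB1. Aurka was higher than control in mutB1 (0.40 ± 0.04) and lower in ΔSAP (-0.17 ± 0.04), and the tested difference between ΔSAP and mutB1 was -0.57 (limma adjusted p = 2.38e-06). The call of Aurka in ΔSAP against control was at the threshold (adjusted p = 0.00997, and 0.00179 to 0.0445 over the alternatives), and it ended in 15 of 19 of them.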

How the results depend on the processing

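No member changed direction where it was called, under any alternative. Median centring of the arrays gave a median change of -0.21 between FL and mutB1, counts of 0 higher and 2 lower with a median of -0.0602 between FL and ΔSAP, 2 higher with a median of 0.017 between FL and control, 2 higher and 0 lower between ΔSAP and control, and 1 higher and 7 lower between ΔSAP and mutB1. Median centring also moved the median over all probe sets. It became -0.05 between FL and mutB1, -0.007 between FL and ΔSAP and -0.06 between FL and control. In the main fit these were -0.004, 0.03 and -0.01. A mean of at least 6 gave 2 higher between FL and mutB1 and 5 between FL and ΔSAP. With eBayes trend and robust these counts were 2 and 6. Fitting only the arrays of a pair gave 7 lower (FL and mutB1), 0 higher and 1 lower (FL and ΔSAP), 4 higher (FL and control), 10 higher (mutB1 and control), 1 higher and 0 lower (ΔSAP and control), and 0 higher and 6 lower (ΔSAP and mutB1).

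Leaving out each array gave, as higher and lower counts, 1 and 9 to 17 for FL and mutB1 (median -0.17 to -0.15), 2 to 4 and 1 to 5 for FL and ΔSAP (-0.04 to -0.01), 6 to 8 and 4 to 5 for FL and control (0.0437 to 0.0909), 13 to 19 and 0 for mutB1 and control (0.17 to 0.19), 2 to 7 and 0 to 1 for ΔSAP and control (0.02 to 0.06), and 2 and 8 to 12 for ΔSAP and mutB1 (-0.14 to -0.10). The cause of these moves was not tested. With the replicate block, 2 members were lower between FL and ΔSAP and 0 between ΔSAP and control. The replicate numbers did not pair the arrays: deviations of same-numbered arrays correlated at -0.21 to 0.17, and 10 of 36 correlated best with their own number. RMA values carry no detection call, so signal over background could not be set.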
